A study of Drosophila melanogaster with 3 samples.

Results

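Peaks of open chromatin that stand alone were examined in the pupal abdominal epidermis of WT Drosophila melanogaster. A peak was called solitary when no other peak summit lay within 5 kb of its own summit on the same chromosome arm. Of 34718 peaks in the merged list, 1477 met this rule, or 4.25%. The members were chosen by the summit positions alone, so the distances between these peaks and their neighbours are given as a description. The peaks came from ATAC-seq, which reads out accessible DNA through the insertions of a transposase. Each of 3 replicates held the abdominal cuticles of 50 pupae aged 38 to 45 h after puparium formation, cleared of internal organs so that the attached epidermal cells remained. All replicates were WT and belonged to 1 group. They were deposited as 1 merged list, so no value has a replicate error, no test between samples could be made, and the depth of each replicate is unknown. Of 12 epidermal marker genes, 9 had a summit within 500 bp of an annotated end, against 65.6% of all protein-coding genes. The exceptions were crb, arm and baz.

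Open chromatin marks promoters, where transcription starts, and enhancers, which raise transcription from a distance. Developmental regulators of the fly are often served by many enhancers spread over their introns and flanks, whereas genes used in every cell type often carry little open chromatin besides the promoter. The abdominal epidermis of the pupa replaces the larval cell layer and secretes the adult cuticle. Neurons are not part of this cell layer, although sensory bristles with their neurons arise in it.

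The 1477 solitary peaks had their nearest summit at a median of 7520 bp (interquartile range 5948 to 12089 bp), where the median over all peaks was 887 bp. On the farther side the next summit lay at a median of 14980 bp. In 478 solitary peaks, or 32.4%, the nearest summit was over 10 kb away, and in 35 it was over 50 kb away. Solitary peaks often followed each other along the chromosome. A total of 662 stood between neighbours that were not solitary, and the other 815 (55.2%) formed rows of 2 to 10 solitary peaks. A gap of over 5 kb counts for the peaks on both of its sides, so the rows are fixed in part by the rule. The 3 peaks just inside the threshold had their nearest summit at 5001, 5002 and 5008 bp, with fold enrichments of 1.53, 2.51 and 2.79. The 3 peaks just outside it were at 5000, 4998 and 4997 bp, with fold enrichments of 1.91, 2.42 and 2.22. The fold enrichment is a linear ratio from the authors' peak caller, the reads stacked at a summit over a local background.

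The first question was how often solitary peaks lay at the end of a gene. A gene end meant that the summit was within 500 bp of either annotated end of a gene, coding or not. The gene table gives no strand, so a 5' end and a 3' end could not be told apart. Of the 1477 solitary peaks, 476 lay at a gene end, or 32.2% (95% Clopper-Pearson interval 29.8 to 34.7%). Over all peaks the share was 31.3%, and over the 33241 peaks that were not solitary it was 31.2%. Both shares lay inside the interval. The intervals in this account cover counting error only and treat peaks as independent. A further 636 solitary peaks (43.1%, interval 40.5 to 45.6%) lay inside a gene away from its ends, where the other peaks had 52.2%. The remaining 365 (24.7%, interval 22.5 to 27.0%) lay outside every gene, against 16.6% of the other peaks.

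The overall share at gene ends combined near and far members that differed in position. The share was 36.8% among the 999 peaks whose nearest summit was 5 to 10 kb away (interval 33.8 to 39.9%). It was 23.4% among the 299 peaks at 10 to 20 kb (interval 18.7 to 28.6%) and 22.9% among the 144 at 20 to 50 kb. Among the 35 peaks isolated by over 50 kb, 5 were at a gene end, or 14.3%. Over the same distances the intergenic share was 21.0%, 29.1%, 36.1% and 45.7%. Peaks in the 5 Mb next to the centromere of a large arm made up 104 of 999, 36 of 299, 43 of 144 and 28 of 35 peaks in these bins. The part of that location in the change of position was not tested.

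**Figure D1:**
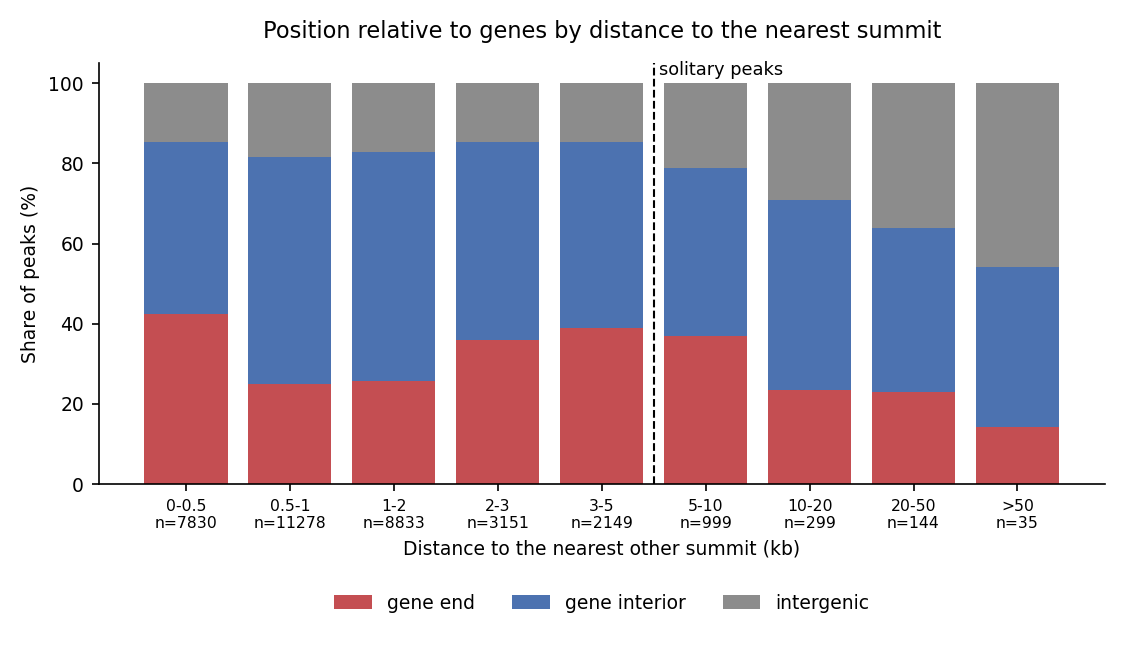
Share of peaks (%, y axis) at a gene end, inside a gene or outside genes, by distance from the summit to the nearest other summit (kb, x axis, number of peaks under each bar). Bars right of the dashed line are the solitary peaks, whose gene-end share was 36.8% at 5 to 10 kb and 14.3% over 50 kb.

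Strength separated gene ends from other sites among the solitary peaks. At gene ends the fold enrichment had a median of 2.54 and quartiles of 1.96 and 3.02. It was 1.94 in gene interiors and 1.92 outside genes, with upper quartiles of 2.30 and 2.29. A fold enrichment of 3 or more was reached by 191 solitary peaks (12.9%), against 6.21% of all peaks. Of these 191 peaks, 124 lay at a gene end, or 64.9% (interval 57.7 to 71.7%). The share was 55.6% among the 1965 peaks of that strength that were not solitary. Among the 688 solitary peaks under a fold enrichment of 2, 131 lay at a gene end (19.0%), and the share in other peaks was 20.7%.

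The reads behind these ratios kept the order of the classes among solitary peaks. Over peaks of all backgrounds they were lower than in other peaks of each class. The pileup at the summit, recovered as a whole number of overlapping reads, had a median of 149.5 at solitary gene ends and 160 at other gene ends. It was 112 in solitary and 147 in other interior peaks, and 111 and 141 in intergenic peaks. The recovered background had a floor of 57.2 reads, which was the value at 89.3% of solitary peaks and at 23.5% of the others. A background that counts reads over kilobases around the summit is lower where no second peak stands nearby, so this measure is not independent of the rule. Solitary gene-end peaks thus had the higher fold enrichment (2.54 against 2.23) and the lower pileup. Among peaks with the background at its floor, the median fold enrichment was 2.31 at 376 solitary gene ends and 2.29 at 2558 other gene ends. The median pileups there were close, at 133.5 and 132 reads. At that background, solitary and other interior peaks had 111 and 112 reads, and intergenic peaks 111 and 115. The gene-end share at that background was 28.5% in solitary peaks (interval 26.1 to 31.0%) and 32.7% in other peaks. Gene-end members were wide, with a median of 471 bp against 382 bp at other gene ends. Interior and intergenic members were narrow, at 285 and 246 bp against 351 and 352 bp. With the background at its floor, the gene-end widths were 353 and 317.5 bp. Interior and intergenic members then had 274 and 246 bp against 294.5 and 291 bp.

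**Figure D2:**
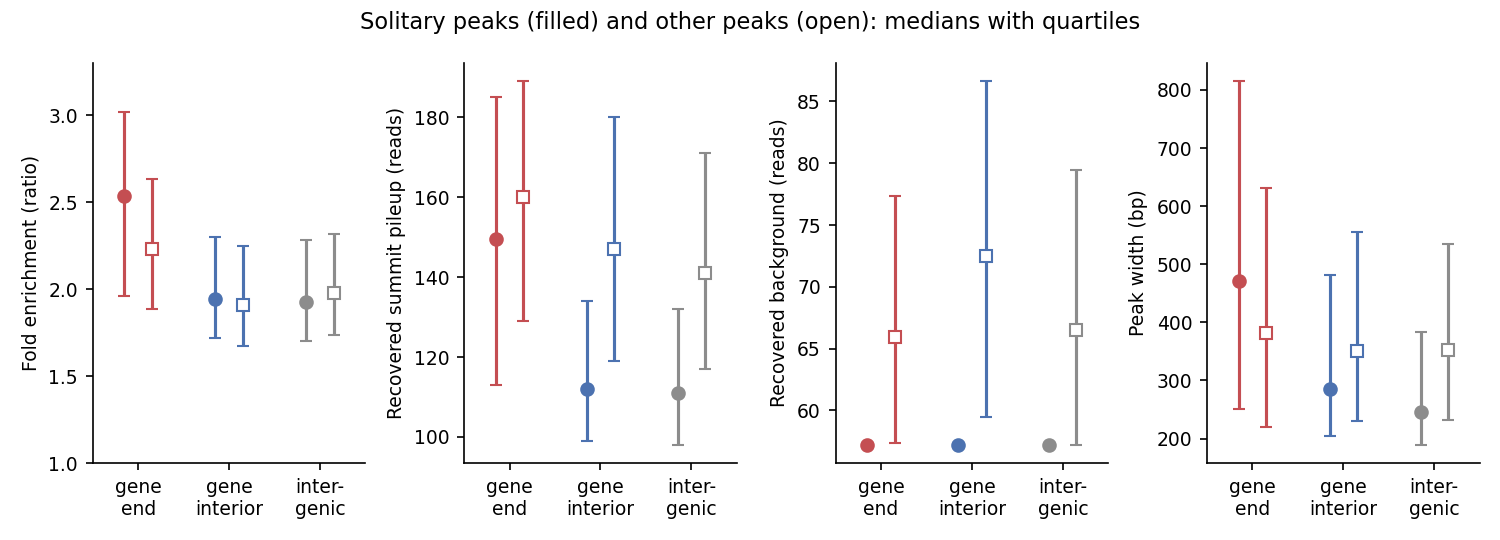
Medians (points) with quartiles (bars) of fold enrichment (ratio), recovered summit pileup (reads), recovered background (reads) and peak width (bp) for solitary peaks (filled) and other peaks (open) in each class of position; no y axis starts at 0. Solitary gene-end peaks have a median fold enrichment of 2.54, with a background at the floor of 57.2 reads.

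Transcription factor genes led the gene-end members by fold enrichment. The highest was at tup, a LIM-homeodomain gene (2L:18880714-18882037, fold enrichment 4.45, 259 reads at the summit, nearest summit 5740 bp away). It was followed by the homeodomain gene Gsc (2L:594562-595550, 4.21, 7741 bp) and the Hox gene pb (3R:6741407-6742421, 4.19, 7310 bp). The GATA factor gene grn reached 4.06 (3R:8181307-8182391, 5340 bp), and the Hox gene Dfd 3.90 (3R:6791465-6791952, 6137 bp). In these 5 genes the summit lay outside the gene, 88 to 150 bp from its annotated end.

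The other 5 of the 10 highest gene-end members were of mixed kinds. Nf1, which encodes the Ras regulator neurofibromin, had a peak at 3.90 with the nearest summit 12918 bp away (3R:25982822-25983796). The genes CG5160 and CG45263 had peaks at the same fold enrichment, 3.90, with nearest summits 10498 and 5840 bp away. Non-coding genes held the remaining pair, lncRNA:CR45559 at 4.19 (3R:6893068-6894108) and snoRNA:Psi28S-3342 at 4.14 (X:5524115-5524869). All 10 peaks had the background at its floor except that of tup, whose background was 57.5 reads.

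**Figure D3:**
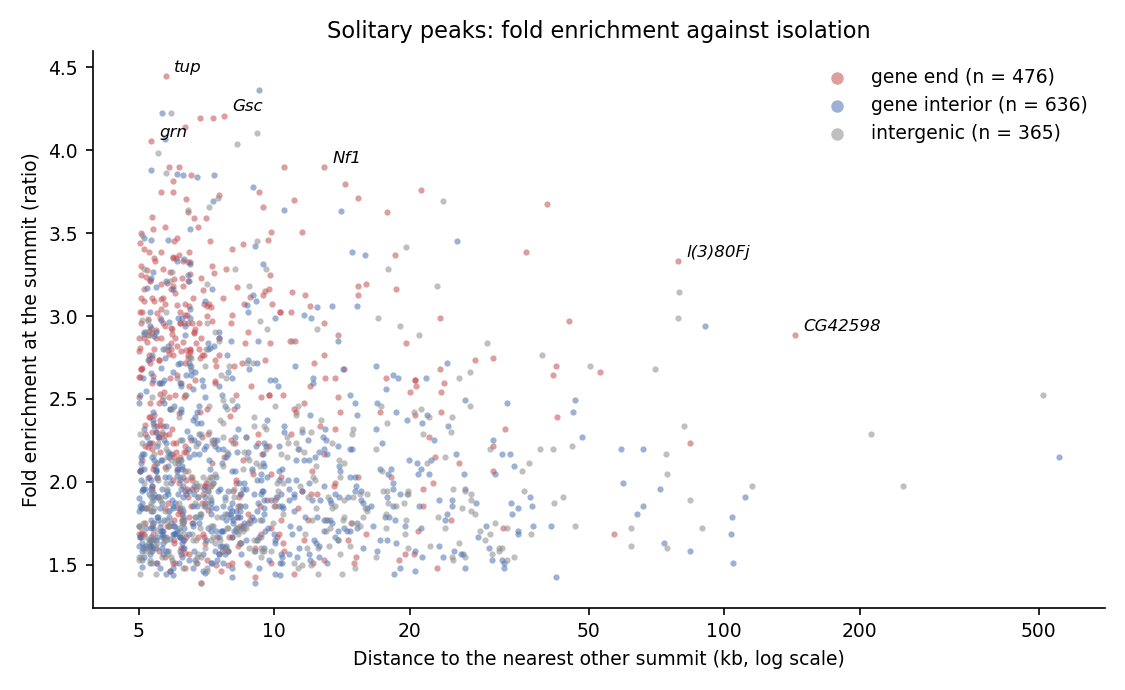
Fold enrichment (ratio, y axis) of each of the 1477 solitary peaks against the distance to its nearest other summit (kb, logarithmic x axis), coloured by position, with 6 gene-end peaks named by gene. Gene-end peaks make up 124 of the 191 peaks at a fold enrichment of 3 or more, up to 4.45 at tup. Interior and intergenic peaks reach 4.36 and 4.23. The peak at CG42598 stands at 2.89 with no other summit within 143705 bp.

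Distal solitary peaks reached similar heights at a few sites. The highest lay inside Hs3st-A, whose enzyme sulfates heparan chains (2R:18745676-18746598, fold enrichment 4.36). Both FGF ligand genes of this chromosome region had a member among the 10 highest. The peak inside ths was at 3.88 (2R:11789924-11790526), and an intergenic one 12706 bp from pyr was at 3.87 (2R:11738770-11739705). Further peaks lay inside the protein kinase C gene Pkcdelta (X:12446085-12447902, 4.23, 1818 bp wide), inside the zinc finger gene tio (2L:22024227-22025137, 4.07) and inside CG10600 (2L:18838718-18839865, 3.86). The other 4 were intergenic, 3368 bp from CG30371 (4.23), 12338 bp from Syx7 (4.11), 17827 bp from lncRNA:CR46489 (4.04) and 4084 bp from the homeodomain gene HGTX (3.99).

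The weakest members stood near the lower limit of the list, where the lowest fold enrichment of any peak was 1.27. The lowest among solitary peaks, 1.39 with 80 reads at the summit, was shared by peaks at the end of CG11345, inside the myosuppressin receptor gene MsR1 and 2384 bp from coro. The next 2 were at 1.43 with 82 reads, at the end of CG6295, within RYa-R, and inside Itpr, the inositol trisphosphate receptor gene. These 5 peaks were 159 to 236 bp wide.

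Gene-end members marked 645 genes, of which 574 were protein-coding. This was 4.12% of 13922 protein-coding genes, and 6.29% of the 9127 with any summit at an end. A total of 435 members lay at a protein-coding gene and 41 at non-coding genes only. At 159 of the 476 members (33.4%) 2 or more genes had an end within 500 bp, against 42.1% of other gene-end peaks, so that 1 peak often stood for 2 genes. The summit lay outside every gene in 52.5% of gene-end members and in 42.7% of other gene-end peaks. The summit was a median of 110 bp from the gene end, and other gene-end peaks had 108 bp.

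The marked genes were longer and had fewer neighbours. Their median length was 3582 bp, against 2638 bp for protein-coding genes with other end peaks only. The solitary share of genes with an end summit was 4.87% up to 2 kb of gene length and 11.9% over 50 kb. A window of 5 kb either side of the summit touched 4 or more protein-coding genes at 27.3% of gene-end members and at 46.2% of other gene-end peaks. Of gene-end peaks with 1 protein-coding gene in that window, 107 of 1337 were solitary, and of those with 5 or more, 57 of 2683 (2.12%). With none in the window, 12 of 270 were solitary (4.44%). A protein-coding end within 500 bp puts its gene in the window, so these 270 peaks lay at ends of non-coding genes only. The part of gene length and spacing in the isolation of these peaks was not tested.

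For 419 of the 574 genes (73.0%), the solitary peak was the sole summit between 500 bp before and 500 bp after the gene. Of the 8553 protein-coding genes with other end peaks only, 3143 had a sole summit in that span (36.7%). Of the marked genes over 20 kb, 13 of 76 had no other summit over their whole length (17.1%). Among protein-coding genes over 20 kb with other end peaks only, this held for 17 of 702 (2.42%). The low number of summits around a member is fixed in part by the rule.

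The 13 long genes with a single summit were looked at after their values were seen. The longest was rsh, known for a role in memory, with 90456 bp and a fold enrichment of 2.54. Among the others were stol, which encodes a calcium channel subunit (2.32), the serotonin receptor gene 5-HT1A (2.04), Tbh, which makes octopamine (1.86), the peptide receptor gene sNPF-R (1.91) and DIP-beta (1.99). Nipped-B, the cohesin loader gene, was at 3.13, the cohesin subunit gene vtd at 2.97 and Nipped-A, which encodes a large subunit of acetyltransferase complexes, at 3.08. Nipped-B, vtd, l(3)80Fj (3.33) and DIP-beta had their peak in the 5 Mb next to a centromere. The remaining 3 were Tmtc1 (2.06), Ac76E, an adenylyl cyclase gene (2.87), and loaf (2.44).

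Gene groups differed in how often their end peak was solitary. The highest share belonged to genes of neuronal recognition. The dpr, DIP, beat and side genes encode immunoglobulin-family surface proteins with which neurons recognise partners. Of 54 such genes, 24 had a summit at an end, and in 11 of these it was solitary. That was 20.4% of the list (interval 10.6 to 33.5%) and 45.8% of its genes with an end summit, against 4.12% and 6.29% over all protein-coding genes. Receptors for amines and peptides followed, with 10 of 50 genes, or 10 of 27 with an end summit (37.0%). Of 10 neuronal markers, 6 had an end summit, which was solitary at elav, an RNA-binding protein gene, and at the synapsin gene Syn. Voltage-gated and inward rectifier channel genes had 2 of 10 and nicotinic receptor subunit genes 1 of 4. The shares of the markers, channels and nicotinic receptors rest on 1 or 2 genes each. Their intervals, 2.52 to 55.6%, 1.30 to 33.1% and 0.253 to 44.5% of the list, hold the 4.12% of all genes. Odorant receptor genes, with 4 of 12, stood above the channel and nicotinic lists. The median length of the surface protein genes was 36155 bp and that of the receptor genes 18173 bp, against 2163 bp for all protein-coding genes. The part of gene length in these shares was not tested.

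The solitary end peaks of the surface protein genes and of the amine and peptide receptor genes were mostly weak. The 11 surface protein genes had a median fold enrichment of 2.04, and the 10 receptor genes 2.16, where the median over all 574 genes was 2.71. The highest in the first list were beat-Vb at 3.20 (3R:12915651-12915913, nearest summit 16023 bp away) and side at 3.06 (3R:27437328-27437722, 12020 bp). The lowest was beat-Ic at 1.48, with 85 reads at the summit. Among the receptors TrissinR, for the peptide trissin, was at 3.37 (2L:5823663-5824109) and the pyrokinin receptor gene PK2-R2 at 2.58 (3R:13333976-13334322). Their nearest summits were 18583 and 20680 bp away. The inward rectifier gene Irk1 and the voltage-gated potassium channel gene Sh reached 3.75 and 2.61, and nAChRalpha3 was at 2.29. The peak of elav was at 2.16 and that of Syn at 1.60.

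The neuronal groups also held many solitary peaks in their interiors. Over all genes 3.54% of interior peaks were solitary, 636 of 17981. In the surface protein genes 33 of 153 interior peaks were solitary (21.6%), in 24 of the 54 genes, led by dpr12 with 3 of its 9. The shares were 17 of 90 (18.9%) in receptor genes, 11 of 47 (23.4%) in voltage-gated and inward rectifier channel genes and 7 of 29 (24.1%) in nicotinic receptor genes. In the neuronal markers the share was lower, at 3 of 29 (10.3%). The part of gene length in these interior shares was not tested. All 3 interior peaks of slo, a calcium-activated potassium channel gene, were solitary. Octalpha2R, an octopamine receptor gene, had 3 of 6.

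Homeodomain genes showed another pattern, with high end peaks and a solitary share of interior peaks below the 3.54% of all genes. Of 83 such genes, 61 had an end summit, and it was solitary in 8 (13.1%, interval 5.84 to 24.2%). The interval holds the 6.29% of all protein-coding genes with an end summit. Among genes with no other protein-coding gene within 5 kb, the share was 2 of 26 (7.69%), against 46 of 286 (16.1%) over all such genes. The values of the 8 ran from 1.98 to 4.45, with a median fold enrichment of 3.87. Below tup, Gsc, pb and Dfd stood the Pax6 gene toy at 3.85 (4:989348-989893), cad at 3.54, the pair-rule gene eve at 2.22 and ct at 1.98. The Gsc gene had no other summit along its length. Both tup and pb had 8 summits with the end peak included, the others over 5 kb from it. Of 414 interior peaks in homeodomain genes, 7 were solitary (1.69%).

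Among genes that build and pattern the epidermis, solitary end peaks were read against 6.29% of all protein-coding genes with an end summit. None of 13 planar polarity genes, which orient the hairs of the cuticle, and none of 11 chitin genes with an end summit had one. Of 66 cuticle protein genes with an end summit, 2 did, Twdlalpha at 1.91 and TwdlN at 1.65. Signalling ligand and receptor genes had 2 of 37, the BMP receptor gene sax at 3.39 and the JAK/STAT receptor gene dome at 1.84. That share, 5.41%, was near the one over all genes, and the intervals for 0 reach 24.7% of the planar polarity list and 26.5% of the chitin list. In their interiors, 2 of 378 peaks in signalling genes and 1 of 136 in planar polarity genes were solitary. Of the 12 epidermal markers tup had a solitary end peak, or 1 of the 9 with an end summit. With a distance of 3 kb in place of 5 kb the planar polarity genes had 23.1% of the list, against 12.3% of all genes.

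Genes used in most cells were set against the same 6.29%. No mitochondrial ribosomal protein gene of 64 with an end summit and no proteasome gene of 31 had a solitary end peak. Of 81 cytoplasmic ribosomal protein genes 2 did, RpL30 at 3.35 (2L:19008666-19009593) and RpL11 at 2.74 (2R:19442137-19442842). They had 214 and 184 reads at the summit, above a background of 63.1 and 66.6 reads. Cell cycle genes had 3 of 26, the cyclin gene CycB3 at 3.07, fzr at 2.68 and the Cdc25 phosphatase gene stg at 2.34. The stg peak was 1706 bp wide, with 226 reads over a background of 95.9 reads. Among general transcription and RNA polymerase II genes 2 of 23 did, Polr2H at 3.02 and Polr2J at 2.73. The shares of 11.5% and 8.70% in these last lists rest on 3 and 2 genes. At over 3 kb the ribosomal protein and proteasome lists had 9.78 to 11.0% of their genes, near the 12.3% of all genes.

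**Figure D4:**
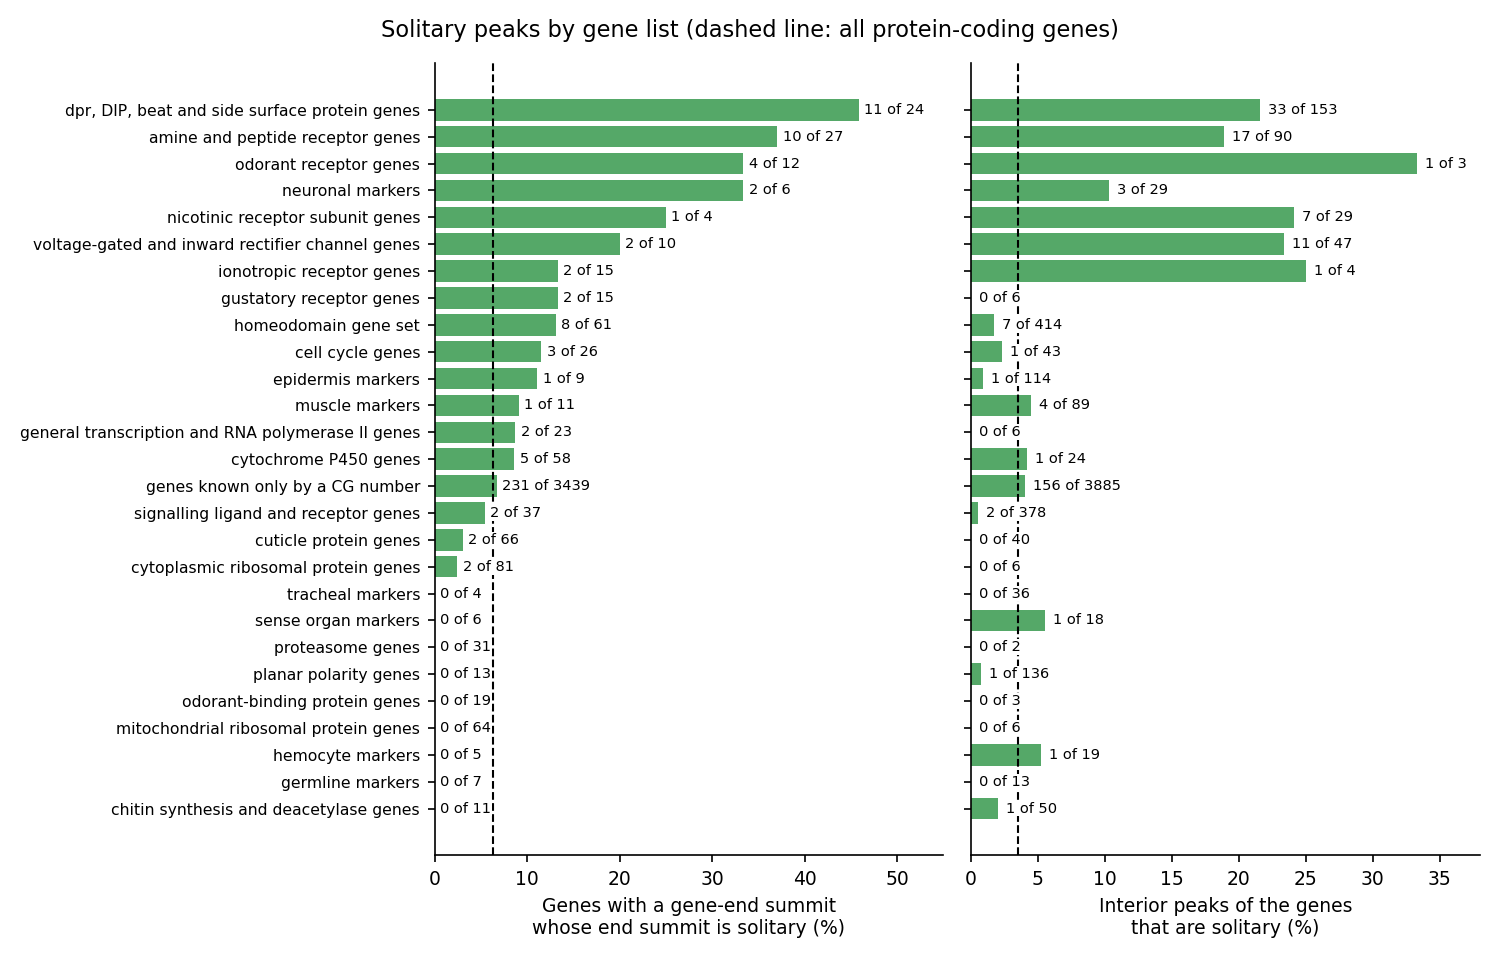
Gene lists with at least 4 genes having a gene-end summit: share of those genes whose end summit is solitary (left, %) and share of the interior peaks of the list's genes that are solitary (right, %), with counts beside the bars and all protein-coding genes as dashed lines. Neuronal surface protein genes stand at 11 of 24 and 33 of 153, mitochondrial ribosomal protein genes at 0 of 64 and 0 of 6.

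Among chemosensory receptor genes, 12 of 60 odorant, 15 of 60 gustatory and 15 of 66 ionotropic receptor genes had a summit at an end, against 65.6% of all protein-coding genes. Against 6.29% of all genes with an end summit, the odorant receptor genes had a solitary one in 4 of 12, led by Or67a at 3.23 (3L:9528585-9529273) and Or85a at 2.03. Gustatory receptor genes had 2 of 15, Gr98d at 2.64 and Gr21a at 1.46. Ionotropic receptor genes had 2 of 15, Ir8a at 2.85 and Ir75c at 1.80. With gene ends of 1000 bp the ionotropic list went from 3.03% to 9.09% of its genes, from below the share over all genes (4.12%) to above it (5.67%). No odorant-binding protein gene of 19 had a solitary end peak. The peak at Or49b (1.77) also lay at the end of Cyp9h1, so these neighbours share 1 measurement. Cytochrome P450 genes, which encode oxidising enzymes, had 5 of 58, with Cyp9c1 at 3.59 and Cyp4e3 at 3.01.

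Markers of other cell types in the dissected tissue formed lists of 4 to 12 genes, read against the 6.29% of all genes with an end summit. The muscle markers had 1 of 11, the tropomyosin gene Tm2 at 2.30. Markers of hemocytes, fat body, trachea, oenocytes, sense organs and germline had none among 5, 2, 4, 2, 6 and 7 genes with an end summit. The intervals for 0 reach 36.9% to 60.2% of these lists. At over 3 kb the sense organ markers had 37.5% and the muscle markers 25%, against 12.3% of all genes. From whole dissected cuticles, a signal in few cells and a weak signal in many cannot be told apart.

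Interior members lay in 498 protein-coding genes with a median length of 31836 bp, against 8786 bp for the 3844 genes with any interior peak. In 391 of these genes there was 1 solitary peak, and in 34 there were 3 or more. The most were 6 of 80 interior peaks in kirre, an adhesion gene of 394149 bp, and 6 of 27 in the teneurin gene Ten-a. In lovit, a histamine transporter gene of 434041 bp in the 5 Mb next to a centromere, all 5 interior peaks were solitary. In mtt, a gene of the metabotropic glutamate receptor family, all 4 were. Genes over 50 kb held 40.9% of solitary interior peaks and 31.0% of the other interior peaks.

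Intergenic members lay at a median of 4084 bp from the nearest gene end, against 2757 bp for other intergenic peaks. They were over 10 kb away in 25.5% of cases, where the other intergenic peaks had 11.1%. No protein-coding gene came within 5 kb of the summit at 200 of the 365 (54.8%), against 44.0% of other intergenic peaks.

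Along the chromosomes, solitary peaks were most frequent on chromosome 4, with 32 of 270 peaks (11.9%, interval 8.25 to 16.3%). The shares on the other arms ran from 3.50% on 3L to 5.13% on X. In the 5 Mb next to the centromeres of the large arms 211 of 2626 peaks were solitary (8.04%, interval 7.02 to 9.14%), against 3.88% of 31822 peaks on the rest of these arms. Near centromeres 25.1% of the solitary peaks lay at a gene end and 43.1% were intergenic. On the rest of the large arms the values were 33.2% and 21.9%.

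**Figure D5:**
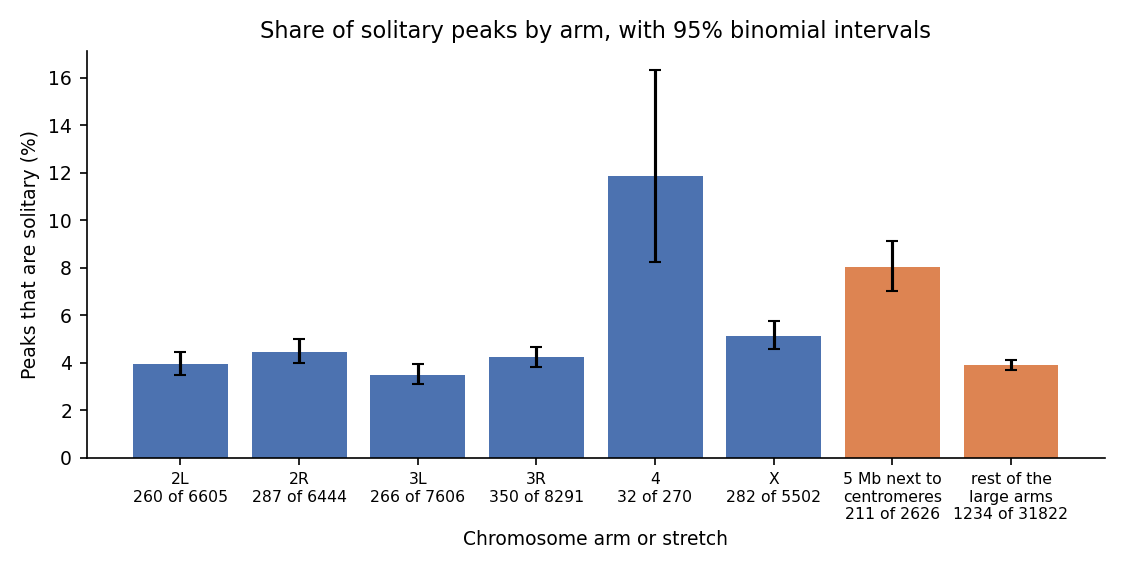
Share of peaks that are solitary (%, y axis from 0) on each arm (blue), and on the large arms divided into the 5 Mb next to centromeres and the rest (orange), with counts below and 95% Clopper-Pearson intervals. Chromosome 4 stands at 11.9% and the stretches next to centromeres at 8.04%.

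The 5 most isolated members all lay towards a centromere. Inside Myo81F, a myosin gene, a peak at 3R:2302267-2302481 (fold enrichment 2.15) had no other summit within 553918 bp. An intergenic peak at 2R:33771-34176 (2.53) was 511651 bp from its neighbour and 292765 bp from the nearest gene end, that of DIP-lambda. The next were intergenic peaks at 3R:11312-11527 (1.98, 250182 bp) and 3R:3374211-3374483 (2.29, 212296 bp). The fifth was at the end of CG42598 (3L:26371295-26371901, 2.89), 143705 bp from the nearest summit.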

How the data were processed

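The submitters' processing notes name MACS2, Picard, SAMtools and BWA and the build dm6. Their versions and settings and the way replicates were merged were not given in the sources used here. Per the labels' protocols, nuclei were prepared by Omni-ATAC with 0.1% IGEPAL. The deposited fold enrichment (a linear ratio), −log10 p-value, −log10 q-value and display score of each peak are the authors' and belong to the merged list; the score was not used. Whole pileups were recovered from fold enrichment and −log10 p, within 0.002 on that scale, for all 34718 peaks (largest residual 0.00014), after a check on simulated data.

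Positions were compared with a RefSeq table of 17684 genes on 6 arms of the same Release 6 assembly, in 1-based coordinates. It holds no strand and no sequence was used here, so the planned division into gene starts and the planned motif search were not made. The 33 gene lists (16 by symbol pattern, 17 by 347 names, all matched, 4 of them through synonyms) and the members were chosen with earlier results of these data known. Text names follow a rule: the 10 highest gene-end and 10 highest distal members, the 5 lowest, the 5 most isolated, 3 either side of the threshold, and the 2 highest genes of each list. Long genes with a sole summit, host genes and other list genes were chosen after their values were seen. Python 3.11.15, pandas 2.3.3 and SciPy 1.17.1 were used. No test was made, since 1 merged list has no replicates.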

Additional observations from a re-analysis of the deposited data

How the results depend on the processing

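Counts moved under most alternatives. There were 3626 solitary peaks at over 3 kb, 478 at over 10 kb and 2651 when the rule was applied again to the 17359 peaks that rank highest by −log10 q. The gene-end share was 36.2% at over 3 kb (other peaks 30.7%), 22.6% at over 10 kb (31.4%) and 41.6% in the stricter list (41.1%). With distances between peak edges it was 29.4% (other peaks 31.3%). It was 23.6% and 40.1% with gene ends of 250 and 1000 bp (other peaks 22.3% and 41.3%). With protein-coding genes only it was 29.5% (other peaks 27.3%). The share was thus above that of other peaks in some settings and below it in others. The interior share was 48.9% and 38.3% with gene ends of 250 and 1000 bp. Median fold enrichment was 1.98 at over 10 kb and 2.59 in the stricter list. Median width was 347 bp at over 3 kb, 260 bp at over 10 kb, 625 bp in the stricter list and 286.5 bp between edges, so members were narrower than other peaks (359 bp) in the full list and wider than them (515 bp) in the stricter one. Median pileup was 167 reads in the stricter list and, in settings chosen after seeing the data, 127 at over 3 kb and 114 at over 10 kb. Protein-coding genes with a solitary end peak numbered 1714, 104 and 380 at over 3 kb, over 10 kb and with gene ends of 250 bp. The cause of these changes was not tested.

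Of 26 lists made of protein-coding genes only, 18 kept their side of the share over all such genes at over 3 kb and with gene ends of 1000 bp. The other 8, all at over 3 kb, were the odorant receptor, voltage-gated and inward rectifier channel, signalling and planar polarity genes and the hemocyte, tracheal, sense organ and germline markers. The ionotropic receptor list, which is not among these 26, changed side with gene ends of 1000 bp. At over 3 kb the neuronal surface protein genes had 24.1% and the amine and peptide receptor genes 28.0%, against 12.3% of all genes. The homeodomain genes had 32.5%. With no other protein-coding gene within 5 kb, a setting chosen after seeing the data, the solitary share of all genes with an end summit was 16.1%, and that of homeodomain genes 7.69%. No paired analysis was possible because all replicates form 1 group in 1 merged list. The motif search and the share at gene starts were not run. A neighbour below the caller's threshold is not in the list, so depth limits which peaks count as solitary.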

Other observations

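Small RNA genes were marked by solitary peaks at a few sites. Of all 10822 genes with a summit at an end, coding or not, 645 had a solitary one (5.96%). Of 73 microRNA genes with an end summit, 6 had a solitary one (8.22%). They were led by mir-954 on chromosome 4 (fold enrichment 3.73) and mir-3645 (3.28), with mir-285 at 2.70. Of 210 tRNA genes with an end summit, 9 had a solitary one (4.29%). The microRNA and tRNA shares rest on 6 and 9 genes. The neighbours tRNA:Glu-CTC-3-8 and tRNA:Glu-CTC-3-9 share 1 peak at 3.28, and tRNA:Pro-CGG-1-1 stood 41618 bp from the next summit with a peak at 2.65. Long non-coding RNA genes had 53 of 1274 (4.16%), among them lncRNA:CR43838 at 3.63. Genes known only by a CG number had 231 of 3439 (6.72%), near the 6.29% of all protein-coding genes with an end summit.

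Some solitary peaks stood in gene-dense sequence, with no other summit within 5 kb. A window of 5 kb either side touched 8 protein-coding genes at the peak of CG5863 (3R:17412244-17412560, fold enrichment 2.01). It touched 7 each at the peaks of CG33640 (3.01), CG13312 with CG32024 (2.23), Adgf-D (1.74) and TwdlN (1.65). These sites were chosen after their values were seen.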
